A study of Caenorhabditis elegans with 2 samples.

Results

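The genes described here encode the subunits of the mitochondrial respiratory chain and the ATP synthase in Caenorhabditis elegans. They were chosen by name: every probe set annotated to exactly 1 gene was taken where that gene is called nuo-, nduf-, sdha-, sdhb-, ucr-, cox- or atp- followed by a number, or is one of gas-1, lpd-5, mev-1, sdhd-1, cyc-1, isp-1 or a protein gene of the mitochondrial genome. This gave 50 genes of the 17118 genes on the array, read by 67 of its 22548 probe sets. Of these, 42 lie in the nuclear genome and 8 in the mitochondrial genome. The names also bring in 6 genes (cox-10, cox-11, cox-15, cox-17, cox-18 and cox-19) whose products help to assemble complex IV and are not subunits of it, and these are described apart.

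RNA came from whole wild-type worms of the N2 strain. One array was hybridised with RNA of synchronized worms kept in the dark with titanium dioxide nanoparticles in the anatase crystal form at 500 µg/ml, suspended in S-medium, a liquid medium for worms. The other array came from worms without anatase. The comparison asks how transcript levels differ between worms with and without these particles when no light falls on them. The sources used here do not give age, exposure time or the number of worms. Each group has 1 array, so no value below has a replicate error, no difference was tested, and precision is limited by having so few arrays.

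Mitochondria make most of the ATP of a worm cell by oxidative phosphorylation. Complex I takes electrons from NADH and complex II takes them from succinate, both pass them on through ubiquinone to complex III, and cytochrome c carries them to complex IV, which reduces oxygen. Complexes I, III and IV pump protons across the inner membrane, and the ATP synthase lets the protons flow back to make ATP. Complex II is encoded by nuclear genes alone, whereas the other complexes combine nuclear subunits with a few made inside the mitochondrion. Worms with altered chain subunits are well studied in ageing and stress: isp-1 and nuo-6 mutants live long, while gas-1 and mev-1 mutants are short-lived and sensitive to oxidative stress.

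Median intensities were 123.1 (control) and 117.8 (exposed), and the means after trimming 2% at each end were 495.1 and 494.6. The 25th percentiles were 31.1 and 25.2, so the exposed array read lower at the dim end. As the scaling of the deposited values is not given, near-equal trimmed means do not show that the arrays were alike before it. All differences are exposed minus control on the scale log2(intensity + 16), averaged over the probe sets of a gene. A gene was compared if its signal on the brighter array was at or above the 25th percentile for that array, which held for 13605 genes, all 50 members among them. These genes were divided by mean signal into 4 equal brightness classes. The intensity of 1 probe set cannot be set against that of another, so only the 2 arrays are compared within a gene. Of the 67 probe sets, 36 belong to types that can pick up related transcripts and are called shared probe sets here.

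The transcripts of the chain and of the ATP synthase were nearly level between both arrays. None of the 42 nuclear members and none of the 8 mitochondrial members reached a 2-fold difference, where 4.73% of all genes compared did so in one direction or the other. Most members are bright: 42 of the 50 lie in the brightest class, and in that class only 0.323% of genes reached 2-fold. A share of 0 is therefore close to the background for genes of this brightness. At 1.5-fold, 1 of the 50 members passed, the mitochondrial gene ND5, and the background was 14.3% over all genes and 2.76% over the brightest class.

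Small differences leaned upwards. Of the 42 nuclear members, 30 were higher on the exposed array (71.4%) and 12 lower, with a median difference of 0.05. Over all genes compared 46.8% were higher, with a median of −0.02, and over the brightest class 53% were higher, with a median of 0.01. Of the 35 nuclear members in the brightest class, 27 were higher (77.1%), with a median of 0.07. Among the 7 dimmer ones, 3 were higher (42.9%), with a median of −0.10, so the lean upwards was seen in the bright members only. The lean differed in size between ways of processing. Of the 42, 33 were higher with each array centred on its median, 31 after a loess correction and 30 after quantile normalization. Median centring also moved the median of all genes compared, to 0.03. With the brightest probe set of each gene 29 of 42 were higher, and without shared probe sets 15 of 23 (65.2%). In all, 86% of the members lay within 0.25 log2 units of equal signal, against 56.6% of all genes compared and 79.7% of the brightest class. For the SD of 1 probe set, taken from the disagreement of genes with exactly 2 probe sets, the brightest class gave 0.18 log2 units over 651 genes and the members gave 0.17 over 13 genes. A gene with a difference of 0.05 thus lay well inside the disagreement between probe sets.

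**Figure D1:**
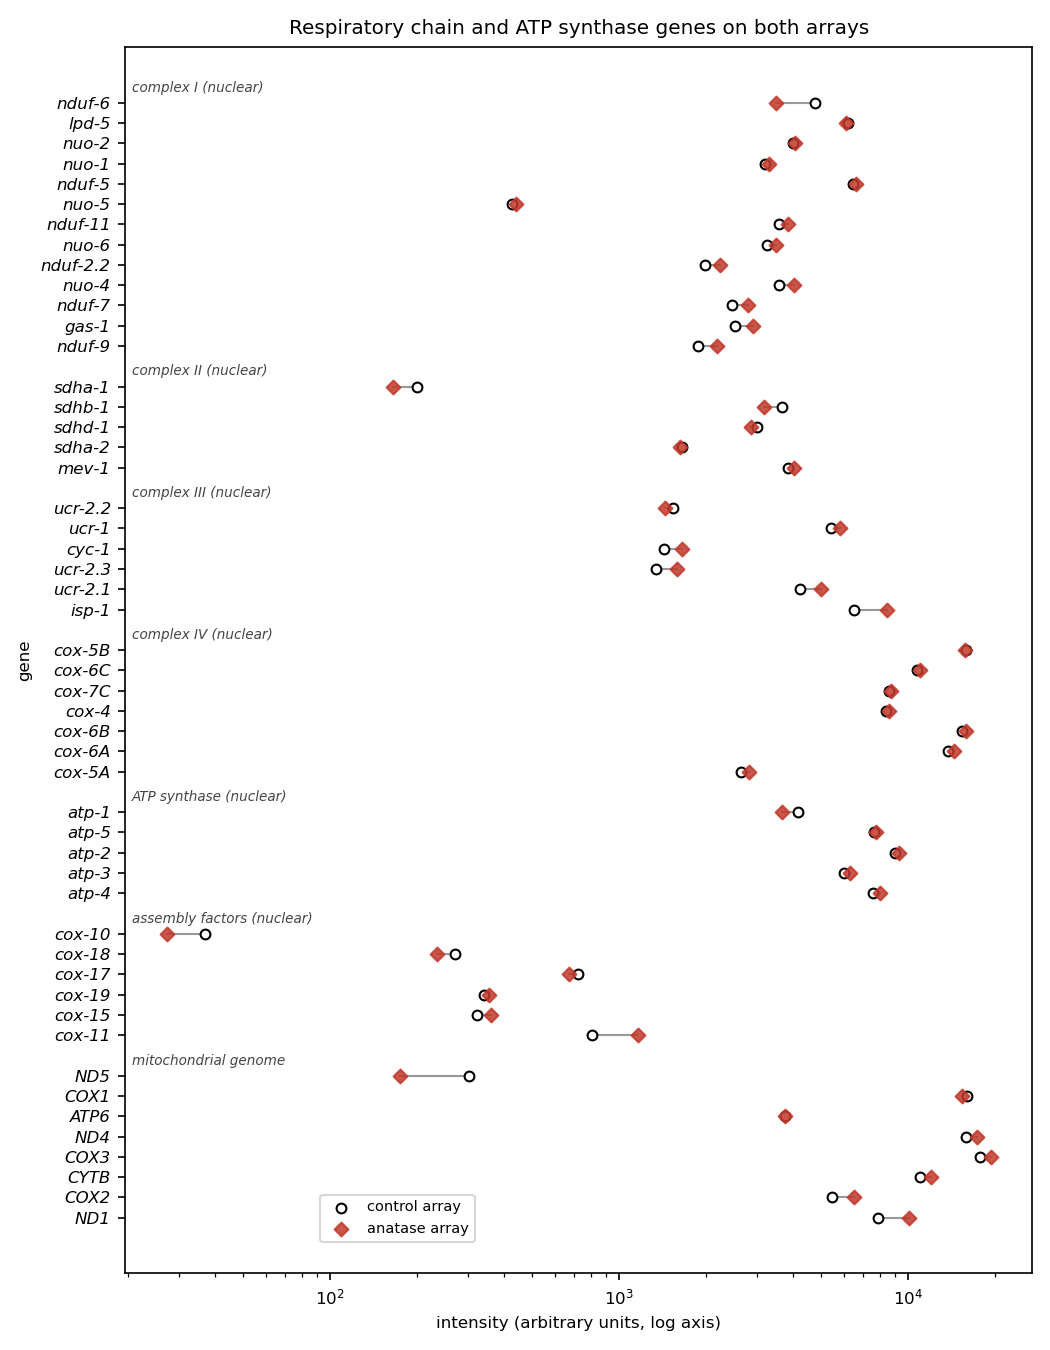
Intensity of each gene on the control array (open circles) and the anatase array (red diamonds), on a log axis, grouped by complex; genes with several probe sets are shown at the level of their averaged log2 values. The symbols of most genes touch or overlap, and ND5 (302.6 and 175.2) and cox-11 (805.1 and 1163.4) are the most separated pairs.

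Complex I, the largest of the complexes, was read for 13 nuclear genes, of which 11 were higher and 2 lower, with a median difference of 0.10. That median was 0.05 with the brightest probe set of each gene and 0.04 for the 5 genes left without shared probe sets. Its core subunits carry the electrons. nuo-1, which encodes the subunit that binds NADH, stood at 3210.6 in control and 3291.1 in exposed worms. nuo-5, an iron-sulfur subunit next in the path, was read by a probe set at 1111.7 and 1188.7 and by another at 156.8 and 155.7. These values left both genes level, with differences of 0.04 each. The core subunit gene gas-1, whose mutants are hypersensitive to volatile anaesthetics, read 2451.0 and 3091.2 in one probe set and 2609.1 and 2738.6 in the other. Its relative nduf-2.2 encodes a second form of the same subunit and read 1988.8 and 2234.9. Both copies lay slightly higher on the exposed array, gas-1 by 0.20 and nduf-2.2 by 0.17, although both probe sets of gas-1 are shared and they differed between themselves (0.33 and 0.07). nuo-2 (0.02) and nduf-7 (0.18), 2 further core subunit genes, were higher as well.

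Among accessory subunits of complex I, which surround the core, nduf-6 stood apart from the others. It read 4763.8 in control and 3478.5 in exposed worms, a difference of −0.45, the lowest among nuclear members. It was read by 1 probe set, which is not a shared one. Of the brightest class of genes 3.50% lay lower than nduf-6. lpd-5 was the other lower gene, from 6211.0 to 6077.9 (−0.03), and it turned to 0.02 with median centring. The remaining accessory genes lay higher by small amounts: nduf-5 by 0.04, nduf-11 by 0.10, nuo-4 by 0.17 and nduf-9 by 0.21. nuo-6, from 3248.1 to 3480.9, was higher by 0.10. For nduf-9, the highest of the 13, one probe set gave 0.38 and the other 0.05, so its rank rested on 1 shared probe set.

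Complex II, succinate dehydrogenase, also works in the citric acid cycle. It was the only one of the 5 complexes whose nuclear genes had a median below 0 (−0.07) as processed here, with 4 of 5 lower; without shared probe sets the ATP synthase median was below 0 as well. sdhb-1, the iron-sulfur subunit, went from 3279.4 to 2856.5 in one probe set and from 4067.5 to 3535.7 in the other. Both are shared probe sets, and their differences were nearly the same, −0.20 each. sdha-1, a flavoprotein subunit, read 489.0 and 451.9 in its own probe set (−0.11) and 76.3 and 54.1 in a dim shared one (−0.40), which averaged to −0.25. Its relative sdha-2 read 1648.1 and 1630.2, a difference of −0.02, which turned to 0.04 with median centring. The membrane anchors were level: sdhd-1 went from 2995.8 to 2861.2 (−0.07), and mev-1 from 3840.1 to 4032.2 (0.07). With each array centred on its median, 2 of the 5 genes were higher and the median was −0.01. No member of complex II reached 1.5-fold, and no test of complex II against the other complexes was made.

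Complex III had the highest median of the nuclear groups, 0.22, with 5 of 6 genes higher. isp-1 encodes the Rieske iron-sulfur protein, which takes electrons from ubiquinol. One probe set of isp-1 read 13135.9 in control and 14828.9 in exposed worms, and the other read 3221.5 and 4785.9. Both were higher on the exposed array, but by unequal amounts, 0.17 and 0.57, which averaged to 0.37; both are shared probe sets, and with the brightest one alone the value is 0.17. cyc-1, the gene of cytochrome c1, read 2276.9 and 2399.9 in its own probe set (0.08) and 900.3 and 1139.9 in a shared one (0.34), with a mean of 0.21. The ucr genes encode the core proteins that face the matrix. ucr-2.1 went from 4222.0 to 5008.1 and ucr-2.3 from 1342.0 to 1586.1, each read by 1 probe set of its own, and they were higher by 0.25 and 0.24. ucr-1 went from 5429.0 to 5802.8 (0.10). The related ucr-2.2 was lower, at −0.08, with 0.03 from its shared probe set and −0.20 from the other. The median of the group fell to 0.10 without shared probe sets and to 0.14 with the brightest probe set of each gene.

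Complex IV, cytochrome c oxidase, was the most even group. Its 7 nuclear subunit genes spanned only −0.0038 to 0.09, with an SD of 0.03 log2 units across genes, which are not replicates. cox-5B, a subunit gene whose knockdown is a standard way to stress worm mitochondria, read 15847.7 and 15805.8. cox-6B read 15373.6 and 15902.0 (0.05). cox-6A was read by 3 shared probe sets, all higher, between 0.03 and 0.10. cox-4 (0.03), cox-6C (0.03) and cox-7C (0.03) were as level. cox-5A was the exception within its own probe sets: neither is shared, and one went from 1058.2 to 1305.9 (0.30) while the other went from 6538.6 to 6019.3 (−0.12). Whether this evenness differs from that of other genes of like signal was not tested.

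The assembly factors of complex IV were spread more widely, with 3 of 6 higher and a median of −0.02. cox-11, which delivers copper to the catalytic core, had the highest value of all members: 805.1 in control and 1163.4 in exposed worms, a difference of 0.52. It was read by 1 probe set of its own, and 98.4% of the brightest class lay below it. The copper chaperone gene cox-17 went the other way, from 721.0 to 673.1 (−0.10). cox-10 and cox-15 act in the synthesis of haem A, the haem of this enzyme. cox-10 was the dimmest member, at 36.9 and 27.2, and its difference of −0.29 was −0.43 with a pseudocount of 1, −0.15 with a pseudocount of 64 and −0.11 after loess or quantile normalization. cox-15 was at 0.16, cox-18, which helps to insert a subunit into the membrane, at −0.19, and cox-19 at 0.06. No common direction was thus seen among these factors.

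The ATP synthase genes were level too. atp-2, the catalytic beta subunit, read 9005.4 and 9337.9 (0.05), and atp-1, the alpha subunit beside it, read 4159.9 and 3669.4 (−0.18). Each of the 2 was read by 1 shared probe set. atp-3, whose product links the catalytic head to its stalk, was at 0.07, atp-4 at 0.08 and atp-5 at 0.02. The 3 probe sets of atp-5 gave −0.05, −0.05 and 0.16, so its direction was open to the choice of probe set. The median of the 5 nuclear genes was 0.05, and −0.02 for the 2 genes left without shared probe sets.

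**Figure D2:**
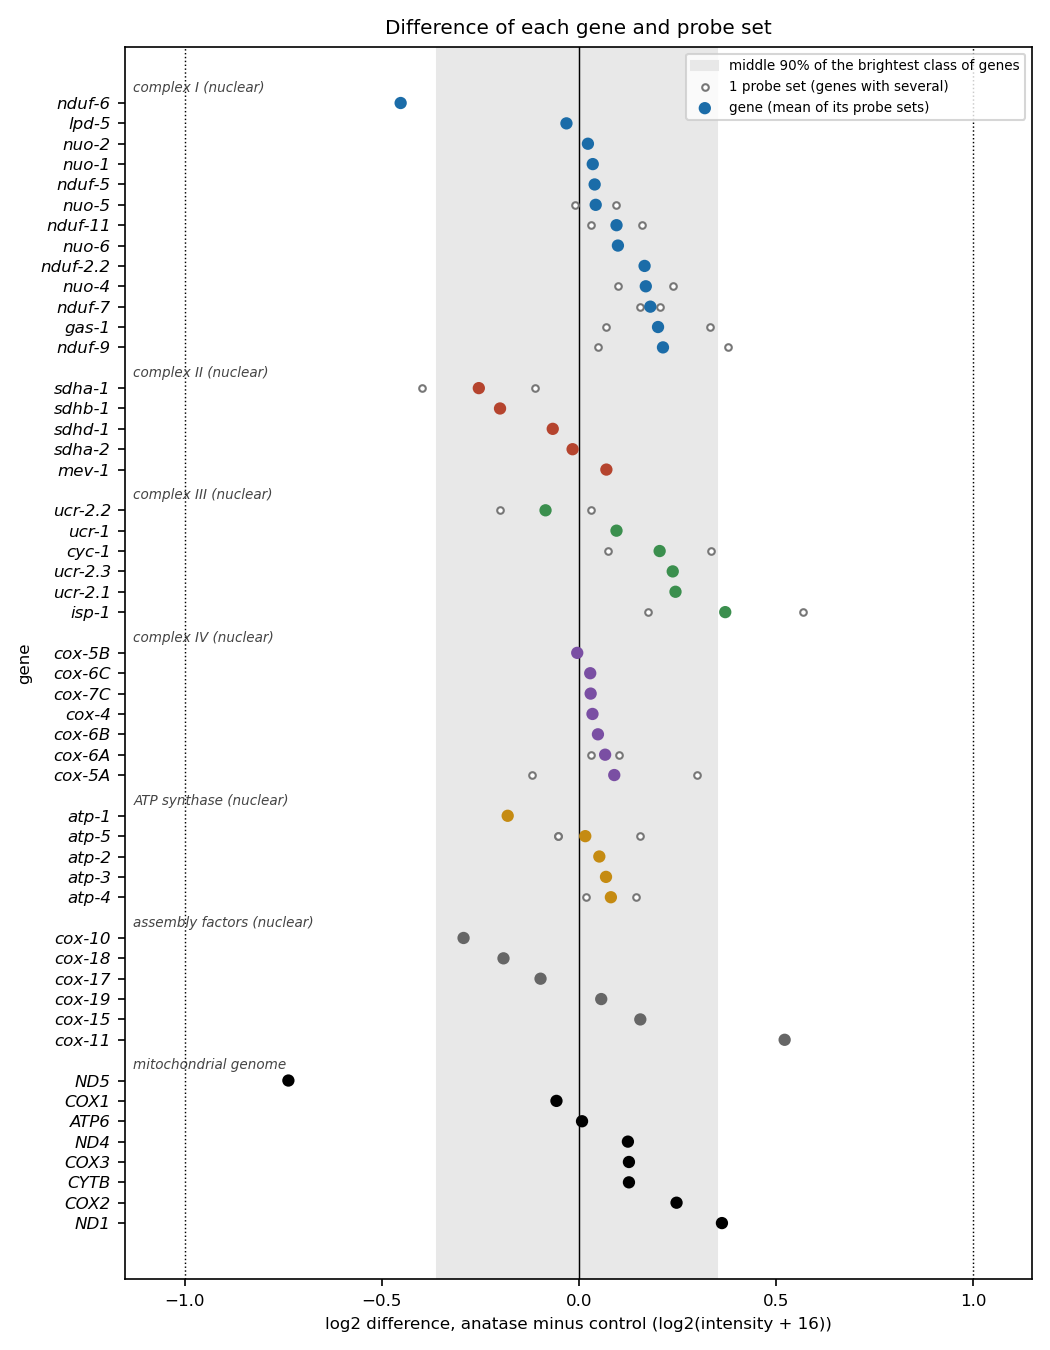
Log2 difference (anatase minus control, log2(intensity + 16)) of each gene, as filled circles coloured by complex, and of single probe sets of genes with several, as open circles; the grey band is the middle 90% of the brightest class of genes and dotted lines mark 2-fold. No gene reaches 2-fold, and nduf-6 (−0.45), isp-1 (0.37), cox-11 (0.52), ND5 (−0.74) and ND1 (0.36) lie outside the band.

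The mitochondrial genome of the worm is transcribed apart from the nucleus, by its own RNA polymerase. Of the 11 mitochondrial genes in the rule, 8 had a probe set naming them alone; the other 3 (ND2, ND3 and ND6) were not analysed here. Each of the 8 was read by 1 probe set. Of these 8, 6 were higher on the exposed array and 2 lower, with a median of 0.13. The background share of higher genes was 46.8% over all genes compared and 53% over the brightest class, which holds 7 of the 8. This contrast was not tested. ND1, a membrane subunit of complex I near the ubiquinone site, went from 7849.0 to 10101.3, a difference of 0.36, read by a shared probe set. COX2, the subunit of complex IV that receives electrons from cytochrome c, went from 5458.2 to 6485.6 (0.25). These were the highest values of the mitochondrial group.

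CYTB, COX3 and ND4 lay together at about the same small difference. CYTB, which encodes cytochrome b of complex III, read 10990.4 and 12006.5, COX3 read 17702.2 and 19337.3, and ND4, a proton-pumping subunit of complex I, read 15902.6 and 17340.1. Their differences were 0.13, 0.13 and 0.12. ATP6, the proton channel subunit of the ATP synthase, was level at 3739.0 and 3760.8, and COX1, the catalytic subunit of complex IV, at 16038.7 and 15421.9 (−0.06). The 7 mitochondrial genes other than ND5 lie in the brightest class.

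ND5, a proton-pumping subunit of complex I, was the exception. Its probe set read 302.6 in control and 175.2 in exposed worms, a ratio of control to exposed of 1.73. On the scale log2(intensity + 16) the difference was −0.74, the lowest of all 50 members, and it ran from −0.78 to −0.62 over the ways of processing. The gene lies in the class below the brightest, in which 1.91% of genes lay lower. ND4 and ND1, the other mitochondrial genes of complex I, differed in the opposite direction. As ND5 was read by 1 probe set on 1 array a group, neither a second reading nor a replicate bears on it.

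**Figure D3:**
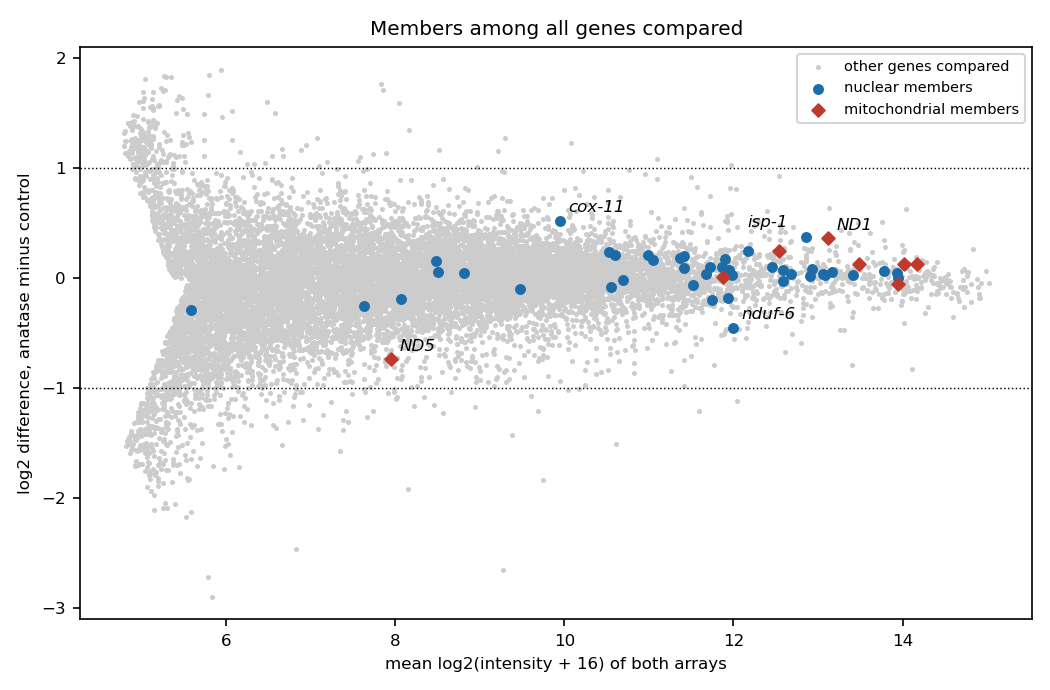
Log2 difference (anatase minus control) against the mean log2(intensity + 16) of both arrays for all 13605 genes compared (grey), with nuclear members in blue and mitochondrial members in red; dotted lines mark 2-fold. The members sit mostly at the bright end, where the spread of all genes is narrow. ND5 lies apart from the other mitochondrial genes along both axes. COX1 (−0.06) is the other mitochondrial gene that was lower on the exposed array.

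The share of members with outlying differences was close to that of other genes of like signal. Outside the middle 90% of genes of its own brightness class lay 5 of the 50 members (10%), the share that the band leaves out by its construction. These were ND5 and nduf-6 on the lower side and ND1, isp-1 and cox-11 on the higher side. Of these 5, only isp-1 was read by more than 1 probe set. Within the brightest class the 35 nuclear members scattered less, with an SD across genes of 0.17, against 0.23 for the class. Of those 35, 91.4% lay within 0.25 log2 units of equal signal, against 79.7% of the class. This contrast was not tested. Of the 15 members with more than 1 probe set, 11 had all of them in 1 direction and 4 in both directions (nuo-5, ucr-2.2, cox-5A and atp-5). For genes with exactly 2 probe sets the signs matched in 10 of 13 members (76.9%) and in 61.1% of such genes in the brightest class. Probe sets of 1 gene share the same RNA and array, so this share does not stand for replicate samples.

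Genes that work beside the chain were read from 8 lists, with 131 of their 132 genes named alone by a probe set and 129 bright enough to compare. None of these reached 2-fold, beside a background of 4.73% over all genes and 0.323% over the brightest class. Of the 129, 77 were higher (59.7%), against 46.8% of all genes, 53% of the brightest class and 52.8% of the class below it. At 1.5-fold 2 passed, coq-4 and twnk-1, both lower, where the background was 14.3% over all genes and 2.76% over the brightest class. Ubiquinone synthesis had 3 of 7 higher and a median of −0.03. Within it coq-4 read 443.0 and 277.3, a difference of −0.65, and coq-3 was at −0.31, each from 1 shared probe set; clk-1, whose mutants are slow and long-lived, was at −0.04, and at 0.02 with median centring. Cytochrome c and other electron carriers had 5 of 9 higher and a median of 0.01. The cytochrome c gene cyc-2.1 was level at 23121.3 and 23280.1, and the second copy, cyc-2.2, went from 1490.9 to 1860.3 (0.32). gpdh-1, at −0.43, encodes a glycerol-3-phosphate dehydrogenase known for glycerol production in osmotic stress, a step outside the chain itself.

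The adenine nucleotide carriers and inhibitors had 5 of 6 higher and a median of 0.06. ant-1.1, which exchanges ADP for ATP across the inner membrane, was at 0.08, and ucp-4, an uncoupling-protein relative, at 0.18. mai-1 and mai-2 encode relatives of the ATP synthase inhibitor protein, and were at 0.45 and 0.04, the latter at −0.014 without its shared probe set. Other assembly factors had 3 of 6 higher and a median of −0.0065, with nuaf-1, an assembly factor of complex I, at 0.16 and sft-1 at −0.23. Pyruvate dehydrogenase and citric acid cycle genes had 11 of 20 higher and a median of 0.03. dlat-2, an acetyltransferase-type subunit gene, read 2416.2 and 3257.0 (0.43), and dlst-1 of the oxoglutarate dehydrogenase complex was at 0.33.

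Mitochondrial ribosomal protein genes, which build the ribosomes that translate the 8 mitochondrial members, had 35 of 58 higher and a median of 0.02, with mrpl-35 at −0.46 and mrps-27 at 0.45. Genes for upkeep and expression of mitochondrial DNA had 7 of 10 higher and the highest median of the 8 lists, 0.16. hmg-5, which packages that DNA, went from 727.3 to 1001.9 (0.45). The helicase gene twnk-1, at −0.78, was dim, at 40.6 and 16.9. Its value ran from −1.22 to −0.37 with pseudocounts of 1 and 64. Mitochondrial chaperones and proteases, listed with other genes of the response to disturbed chain assembly, had 8 of 13 higher and a median of 0.04. The chaperone genes hsp-6 and hsp-60 were at 0.34 and 0.26, and atfs-1, the transcription factor that drives this response, at −0.09. All probe sets of hsp-60 are shared, and its value was 0.20 with the brightest one alone. Whether this list differs from other genes of like signal was not tested.

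**Figure D4:**
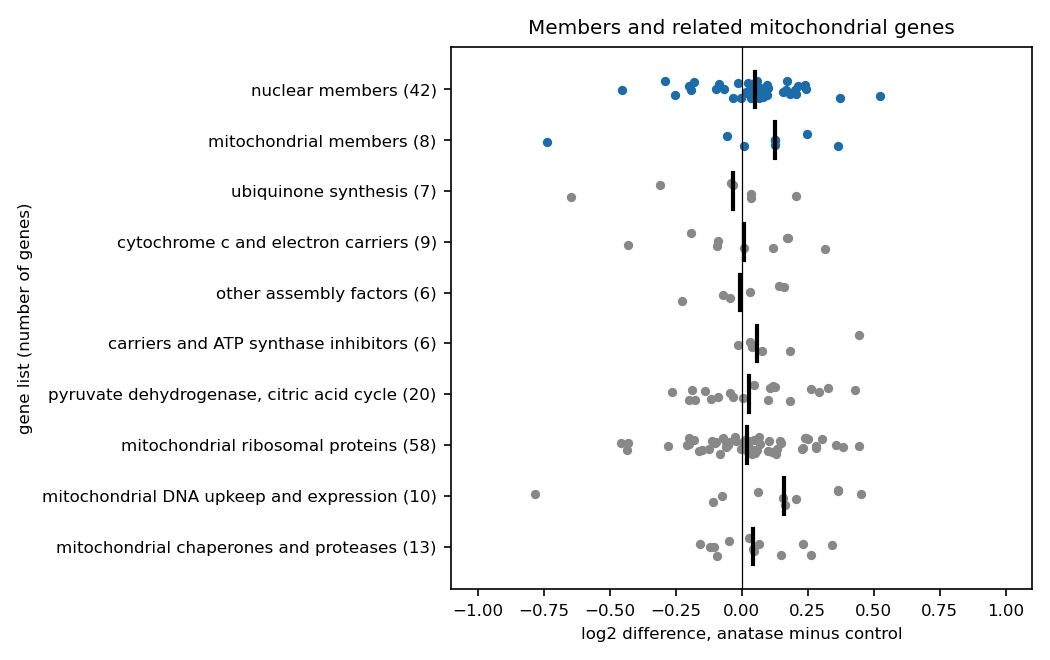
Log2 difference (anatase minus control) of each gene in the nuclear and mitochondrial member groups (blue) and in 8 lists of related mitochondrial genes (grey), with black bars at the medians and the number of genes in brackets. All medians lie between −0.03 and 0.16, and no gene lies past 2-fold (−1 or 1).

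Whole worms mix tissues that differ in how many mitochondria they hold, and in such a sample fewer cells of a type and less RNA per cell cannot be told apart. All 21 marker genes of 7 tissues or products passed the brightness filter, with none at 0, the lowest intensity of any on either array being 139.7 (unc-119). The summed intensity of the 4 sperm markers was 23504 in control and 25469 in exposed worms, with 4 of 4 higher. The 3 body muscle markers summed to 6875 and 7145, with 2 of 3 higher, and the 3 germline markers to 3174 and 3337, with 3 of 3 higher. The 3 neuron markers summed to 2822 and 2897, with 3 of 3 higher. Sperm, germline, muscle and neuron sums were thus slightly larger in exposed worms, and those of the intestine, hypodermis and yolk were smaller. The 3 intestine markers summed to 3641 and 3389, with 2 of 3 lower, the 3 hypodermis markers to 9107 and 8454, with 3 of 3 lower, and the 2 yolk genes to 42369 and 37584, with 1 of 2 lower (vit-6). Each sum is weighted to its brightest gene, such as msp-3 (14414.7 in control), snb-1 (2506.7) and vit-6 (29653.3). Genes of a group also differed: elt-2 was at −0.60, vha-6 at −0.19 and ges-1 at 0.16. In muscle, myo-3 was at 0.43, unc-15 at 0.05 and unc-54 at −0.02. The sperm markers msp-3, msp-142 and gsp-3 were read by shared probe sets alone, and so were pgl-1, ges-1, vha-6, myo-3, unc-54, rab-3 and dpy-7. The remaining sperm marker, spe-11, was read by 1 probe set of its own and was at 0.54. The part of these marker shifts in the lean of the respiratory chain genes was not tested.

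**Figure D5:**
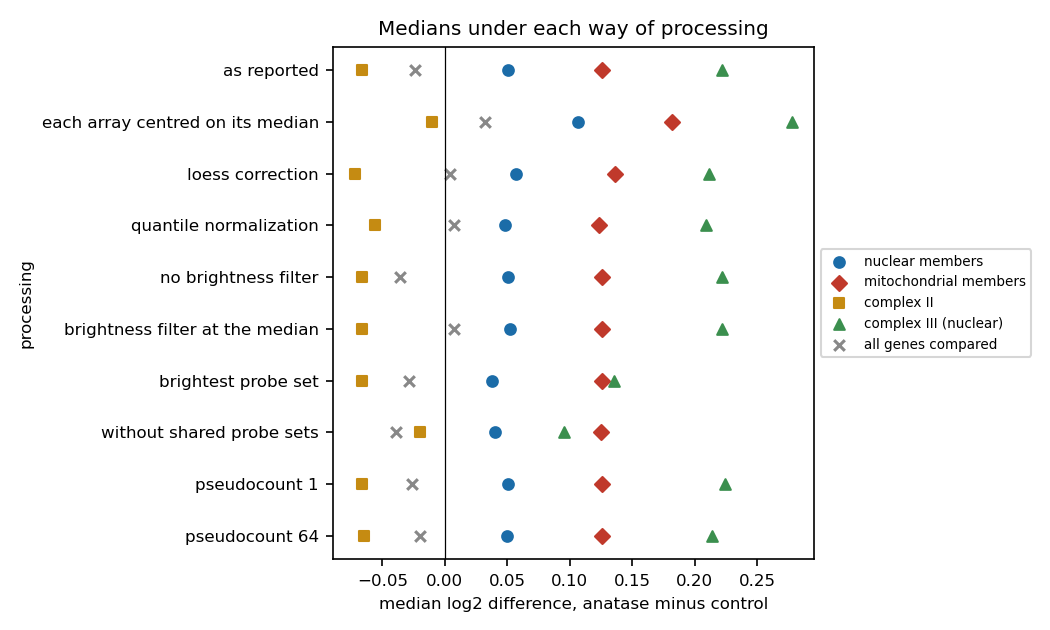
Median log2 difference (anatase minus control) of nuclear members, mitochondrial members, complex II, the nuclear genes of complex III and all genes compared, under the processing reported and 9 alternatives. The nuclear median stays between 0.04 and 0.11, the mitochondrial median between 0.12 and 0.18, and the complex II median between −0.07 and −0.01.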

How the data were processed

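The authors deposited 1 linear intensity for each probe set on each array, measured from biotin-labelled cRNA of Trizol-extracted RNA on an Affymetrix array, per the labels' protocols. Transcriptome Analysis Console is named in the submitters' processing notes; how probes were summarised and scaled is not given in the sources used here. Both arrays carry replicate number 3 in the labels.

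Probe sets with exactly 1 gene in the platform annotation were used. All 50 members matched a RefSeq gene table (assembly WBcel235) by gene number with the same symbol; coordinates are not printed. Values were taken as log2(intensity + 16), a scale that understates folds of dim genes, averaged over a gene's probe sets, and filtered at the 25th percentile. Brightness classes, 4 of equal size, divide the genes compared by mean log2 value. The steps were tested on simulated data with planted changes larger than any seen among the members, so differences of the size reported here were not covered. Members and lists were chosen with earlier results of these data known.

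Genes named with values were all mitochondrial members, members past 0.5 log2 units, the 4 largest differences of each complex, the 2 largest of each related list, and a fixed set (gas-1, mev-1, isp-1, nuo-6, clk-1, cyc-2.1, cyc-2.2, hsp-6, hsp-60, atfs-1, ant-1.1, mai-2); the other members are given to account for all of them. Software was numpy 2.4.6, pandas 2.3.3, statsmodels 0.14.6 and matplotlib 3.10.9 under Python 3.11.15.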

Additional observations from a re-analysis of the deposited data

How the results depend on the processing

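No paired analysis was possible because there is only 1 array on each side of the comparison. Alternatives were 3 scalings, 2 filters on brightness, the brightest probe set, leaving out shared probe sets (30 members left), pseudocounts of 1 and 64, and thresholds of 1.5-fold and 3-fold. No member reached 2-fold in any of them. Of the 50 members, 6 changed sign in at least 1 alternative, with reported differences of at most 0.09 in size (lpd-5, sdha-2, cox-5B, atp-5, ucr-2.2, cox-5A). With each array centred on its median, the median of nuclear members was 0.11, that of the assembly factors 0.036 and that of all genes 0.032. Moving the brightness filter up to the median removes cox-10 and gave an assembly factor median of 0.057, and the nuclear ATP synthase median was −0.018 without shared probe sets, which leaves 2 genes. The median of all genes was 0.0071 with the filter at the median, 0.0044 after loess and 0.0078 after quantile normalization. As processed for the report, 226 genes lay at least 2-fold higher and 418 lower (35.1% higher). They were 253 and 361 (41.2%) with median centring, 289 and 304 (48.7%) after loess and 289 and 309 (48.3%) after quantile normalization. They were 25 and 54 with the filter at the median, 423 and 803 at pseudocount 1, 12 and 24 at pseudocount 64, 638 and 1303 at 1.5-fold, and 23 and 76 at 3-fold. Detection calls were not used here, so whether cox-10, the dimmest member, lies above background is unknown.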
